A study of Homo sapiens with 12 samples.

Results

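The replication-dependent histone genes were taken as every gene whose symbol is H2AC, H2BC, H3C or H4C followed by digits, or H1-1 to H1-5, with pseudogenes left out. Of 60663 genes in the table of raw counts, 68 met this rule and 51 had 10 or more counts summed over the 12 libraries. These 51 members were 4 genes of linker histone H1 and, for the core histones, 12 of H2A, 17 of H2B, 8 of H3 and 10 of H4. RNA came from RCC4, a clear cell renal carcinoma line with loss of the tumour suppressor VHL (VHL-negative), and from the same line with VHL put back (VHL-positive). Each was given DMSO, the solvent control, or 5 µM JQ1, an inhibitor of BET bromodomain proteins that the labels call a MYC inhibitor, which made 4 groups of 3 libraries. All 4 groups derive from 1 cell line, and nothing in the labels tells how VHL was delivered, how many clones were used, how long JQ1 was given or whether each library had its own culture. The growth protocol also describes lentiviral hairpins against MYC, which no sample label names. Cells were kept in geneticin. The p-values below then measure the spread between these libraries, which may be technical.

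Replication-dependent histone genes supply the histones that package newly made DNA, and their RNA rises in S phase. Their transcription is driven through NPAT, a cofactor held in histone locus bodies. Most of their mRNAs end in a conserved stem-loop instead of a poly(A) tail, which is bound by SLBP and cut with the help of the U7 snRNP. Total RNA was depleted of ribosomal RNA here, per the labels' protocols, so RNA without a tail could be captured. VHL directs hypoxia-inducible factors to degradation, and BET proteins bind acetylated histones and recruit elongation factors to genes.

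The members lie in clusters, with 43 on chromosome 6, 7 on chromosome 1 and 1 (H4C16) on chromosome 12. The processing signal was searched for as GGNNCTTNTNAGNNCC with both arms of the stem paired, in the sense strand of the GENCODE 29 transcripts. It was found in 22 of the 51 members and in 50 of 58676 annotated genes. Of the 29 members without it, 27 have a longest transcript whose length is a multiple of 3 bases, as a model that holds only the coding sequence would. Among these 27, however, H2AC11 (2250 bases), H3C12 (522) and H4C3 (435) are longer than models such as H2AC4 (393), H3C1 (411) and H4C1 (312). The commonest form stood in 13 members, a form with another base pair inside the stem in 4 H4 genes, and another form in H4C9 alone of the members. H4C14 and H4C15, both under the count minimum, hold the form of H4C9. H3C6 also has a form found in no other member. The response of H4C9 to JQ1 is described below. Examples are shown to let the shared signal be read, with the paired arms in capitals and the loop in lower case.
H2BC21: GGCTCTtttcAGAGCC
H4C16: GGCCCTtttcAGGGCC
H4C9: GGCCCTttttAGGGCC

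Promoters in the RefSeq table (build GRCh38.p14, 250 bases before to 50 after each start) matched 47 of the 51 members. On either strand, CCAAT was found in all 17 H2B promoters, 11 of 11 H2A, 7 of 7 H3 and 4 of 4 H1, but in 2 of 8 H4, against 34.6% of all 35116 promoters. The octamer ATTTGCAT, the word read by OCT1, stood in 13 of 17 H2B and 9 of 11 H2A promoters and in no H1, H3 or H4 promoter, against 1.77% of all. TATAAA was found in 32 of 47 members against 11.5%, and the E-box CACGTG in no member against 7.26%. Promoters of H2A and H2B genes that stand head to head overlap, so the same site can be counted for both genes. For example, the octamer at -197 bases from the start of H2AC20 is the one at -46 bases from that of H2BC21. The H2A and H2B counts of these words are therefore not all of separate sites. The 120 bases before the start are printed for 3 H2B genes whose levels swung most between DMSO libraries, for H2BC8, which ranged over 0.20 log2 units in VHL-negative and 0.86 in VHL-positive DMSO libraries, and for H4C6, which differed most between the lines. Capitals mark the TATA word, the CCAAT box and the octamer, on either strand.
H2BC21, chr1:149886683-149886802, minus strand: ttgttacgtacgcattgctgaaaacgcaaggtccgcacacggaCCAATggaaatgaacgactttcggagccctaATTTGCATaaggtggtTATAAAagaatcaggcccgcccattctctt
H2BC12, chr6:27146859-27146978, minus strand: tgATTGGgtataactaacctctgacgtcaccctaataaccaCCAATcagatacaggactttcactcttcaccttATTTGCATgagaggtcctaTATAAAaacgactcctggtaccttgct
H2BC13, chr6:27807930-27808049, minus strand: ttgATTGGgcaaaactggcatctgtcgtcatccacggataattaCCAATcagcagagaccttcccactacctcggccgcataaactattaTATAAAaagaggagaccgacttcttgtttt
H2BC8, chr6:26216689-26216808, minus strand: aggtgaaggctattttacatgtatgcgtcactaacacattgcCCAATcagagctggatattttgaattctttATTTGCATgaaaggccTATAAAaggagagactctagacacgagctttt
H4C6, chr6:26240273-26240392, plus strand: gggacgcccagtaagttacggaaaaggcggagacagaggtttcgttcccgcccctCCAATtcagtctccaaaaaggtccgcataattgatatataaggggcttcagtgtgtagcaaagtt
Among the 16 tested H2B genes, the octamer was in 7 of the 9 that swung widely, as defined below, and in 5 of the other 7.

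Levels are counts scaled to a library of fixed size (CPM) on library sizes scaled by TMM, with SD over 3 libraries. Total counts ran from 15452949 to 32502310 per library, and the members held 0.316 to 0.66% of them. VHL RNA was 26.4 ± 1.64 CPM in VHL-negative and 70.3 ± 7.62 CPM in VHL-positive cells under DMSO (log2 -1.41, adjusted p = 2.25e-07, edgeR quasi-likelihood). HEXIM1, a gene known to rise under BET inhibitors, went from 67.7 ± 3.67 to 182 ± 4.57 CPM with JQ1 in VHL-negative cells and from 91.1 ± 13.7 to 218 ± 8.89 CPM in VHL-positive cells, and both rises passed the test. In VHL-positive cells VHL itself rose with JQ1, to 212 ± 14.0 CPM, while in VHL-negative cells it stood at 32.7 ± 2.39 CPM. Markers of endothelium (PECAM1, VWF, CDH5), leukocytes (PTPRC, CD3E) and fibroblasts (PDGFRA, DCN, LUM) were all under 0.15 CPM on average, while PAX8, a renal lineage factor, averaged 423 CPM. ESAM (4.56 CPM) and CSF1R (1.70 CPM) were the exceptions among these marker lists. Libraries stood apart in 2 ways. Replicate 1 of VHL-negative DMSO and replicate 2 of VHL-positive DMSO held 15.3% and 14.2% of counts in mitochondrial MT-RNR2 and only 0.305% and 0.247% in the signal recognition particle RNA RN7SL1, against 4.04 to 10.8% and 0.537 to 1.97% in the other 4 DMSO libraries. Replicate 3 of VHL-negative JQ1 lay between the other 2 libraries of its group in 78.6% of 10210 genes and for 43 of 48 members. For replicate 3 of VHL-positive JQ1 this was 54.9% and 27 members, and for replicate 3 of VHL-positive DMSO 54.3% and 39 members. For replicate 2 of VHL-negative DMSO it was 48.6% and 18 members. Whether these replicates are independent samples was not tested, and if they were not, their groups would hold fewer than 3 and p-values would be too small. Results are therefore given also without the 2 DMSO libraries high in MT-RNR2 and with replicate 3 of both JQ1 groups left out. Below, the DMSO libraries that stood apart are those 2.

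Per kb of annotated exon, averaged over the 12 libraries, the most abundant member of each class was H1-4 (708 CPM per kb), H2AC8 (284), H2BC5 (210), H3C2 (843) and H4C4 (613). The exon lengths of members annotated without untranslated ends are too short, so these values compare genes only roughly. H3C2, which encodes canonical H3.1, stood at 507, 393 and 476 CPM in the VHL-negative DMSO libraries 1 to 3 and at 519, 362 and 442 CPM under JQ1. In VHL-positive cells it stood at 245, 325 and 285 CPM under DMSO and at 231, 179 and 193 CPM under JQ1. Every VHL-negative library thus lay above every VHL-positive one for H3C2, and the JQ1 libraries of VHL-positive cells lay below their controls. At the low end, the testis gene H1-1 had 57 counts in all 12 libraries, and the other testis genes H2AC1 and H2BC1 had 2 each. The 17 genes under the count minimum (1 H1, 5 H2A, 1 H2B, 5 H3 and 5 H4) are H1-5, H2AC1, H2AC14, H2AC15, H2AC18, H2AC19, H2BC1, H3C4, H3C8, H3C11, H3C14, H3C15, H4C7, H4C11, H4C13, H4C14 and H4C15. Of these 17, 10 share over 50% of their 75-base windows with another annotated gene, and so do 6 of the 51 members (H2AC7, H2AC13, H2AC17, H2BC12, H3C13 and H4C12). Reads that fit such copies equally may have been dropped or split by the authors' counting, so these levels are uncertain. H4C12, for instance, shares 100% of its windows with H4C11, and H2AC7 overlaps another annotated gene over 98% of its exon.

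**Figure D1:**
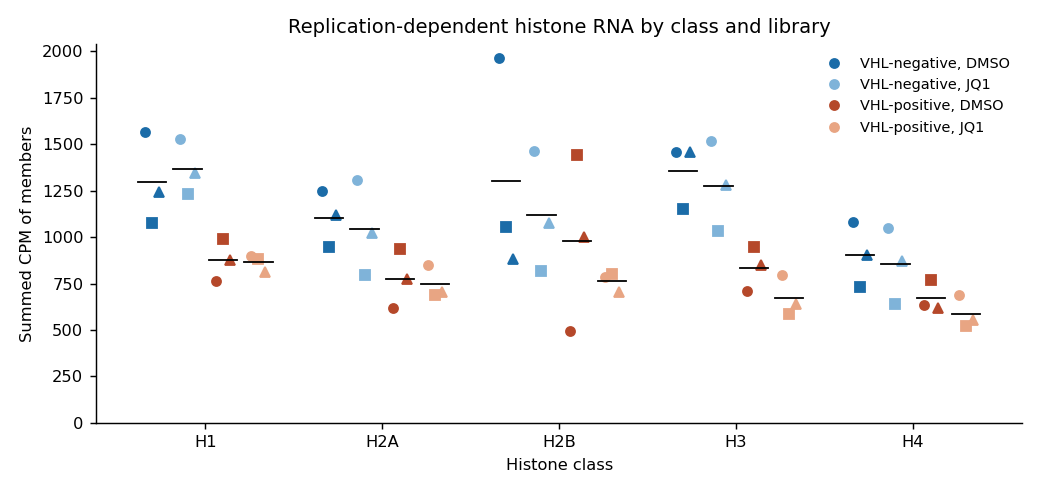
Summed CPM of the members of each histone class in each library. Circles, squares and triangles are replicates 1, 2 and 3, colours are the 4 groups and the line is the group mean. For H3, the VHL-negative libraries reach 1032 to 1516 CPM and the VHL-positive ones 584 to 946 CPM, while for H2B the DMSO libraries run from 492 to 1966 CPM.

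Members that differed between the lines were mostly higher in VHL-negative cells. Under DMSO, 14 members were higher and 1 lower in VHL-negative cells of 48 tested, where 14.8% of all 20714 genes tested were higher and 15.9% lower, 30.7% in all. Each change is a log2 fold from the quasi-likelihood test of edgeR, called at a Benjamini-Hochberg adjusted p under 0.05 over all genes tested. Under JQ1, 18 members were higher and 4 lower, where 19.7% of all genes were higher and 21.2% lower, 40.9% in all. The median log2 difference of the tested members was 0.39 under DMSO and 0.53 under JQ1, against 0.00 and 0.03 over all genes tested. The share of tested members called in either direction was 31.2% under DMSO and 45.8% under JQ1, near the shares of all genes. Summed over all members, levels overlapped under DMSO, at 4957 to 7325 CPM in VHL-negative and 3217 to 5082 CPM in VHL-positive libraries, and did not under JQ1, at 4517 to 6869 against 3417 to 4017 CPM. In these bulk libraries, fewer cells in S phase and less histone RNA per cell cannot be told apart.

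Among the H3 genes, 5 of 8 were higher under DMSO and 6 of 8 under JQ1. H3C7 measured 334, 263 and 358 CPM in VHL-negative DMSO libraries and 131, 185 and 173 CPM in VHL-positive ones (log2 0.96, SE 0.186, adjusted p = 8.45e-04). H3C10 was 165, 157 and 207 CPM against 91.4, 109 and 97.9 CPM (log2 0.83, adjusted p = 0.00159). For both genes no VHL-positive DMSO library reached a VHL-negative one. H3C2 (log2 0.69), H3C3 (0.63) and H3C12 (0.84) were also higher under DMSO. Under JQ1 the log2 differences were 1.13 for H3C2, 0.84 for H3C3, 0.97 for H3C7, 1.08 for H3C10, 1.16 for H3C12 and 0.65 for H3C1. H3C6 alone among the H3 genes was lower in VHL-negative cells under JQ1 (log2 -0.84, adjusted p = 0.00172). The libraries of H3C1 overlapped between the lines.

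Linker histone genes H1-2 and H1-4 were higher in VHL-negative cells under both treatments, and H1-3 was called under neither. H1-4 stood at 782, 527 and 632 CPM against 335, 427 and 394 CPM under DMSO (log2 0.75, SE 0.156, adjusted p = 0.00165), with no overlap. Under JQ1 it was 772, 644 and 701 CPM against 411, 408 and 372 CPM (log2 0.83, adjusted p = 5.95e-04). H1-2 differed by log2 0.51 under DMSO and 0.64 under JQ1.

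Among H2A genes, H2AC11 (log2 0.80), H2AC12 (0.68), H2AC13 (0.82) and H2AC6 (0.41) were higher under DMSO, and H2AC11 (0.88), H2AC12 (0.79) and H2AC13 (1.08) under JQ1. The call of H2AC6 held in 6 of 20 alternative settings and was lost on leaving out any of 9 single libraries. Of the 16 tested H2B genes, H2BC11 was the 1 called under DMSO, at 163, 127 and 131 CPM against 36.9, 102 and 71.4 CPM (log2 1.00, adjusted p = 0.00917). Under JQ1, H2BC11 (log2 1.15), H2BC17 (1.25) and H2BC4 (0.77) were higher. Among H4 genes, H4C16 (0.75) and H4C3 (0.62) were higher under DMSO, and H4C8 (1.03), H4C1 (1.01), H4C2 (0.65) and H4C4 (0.54) under JQ1, where libraries overlapped for H4C2 and H4C4. H4C9 (-1.62) and H4C12 (-1.38) were lower in VHL-negative cells under JQ1.

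H4C6 went the other way and showed the largest difference of any member. It encodes histone H4 from a single exon at chromosome 6, 26240426 to 26240737 (GRCh38, plus strand). It was 0.848, 0.355 and 0.434 CPM in VHL-negative DMSO libraries, from 22, 12 and 12 counts. VHL-positive DMSO libraries held 16.9, 23.1 and 18.9 CPM, from 463, 586 and 628 counts. Under JQ1 the values were 0.342, 0 and 0.194 CPM against 18.7, 13.7 and 15.6 CPM. Every VHL-positive library was thus far above every VHL-negative one (DMSO: log2 -5.19, SE 0.324, adjusted p = 3.46e-09; JQ1: log2 -6.25, SE 0.382, adjusted p = 2.91e-09). H1-3, the nearest histone gene upstream at 26234268 to 26234933, differed by log2 0.09 under DMSO without passing the test, and H3C7, downstream at 26250195 to 26250605, was higher in VHL-negative cells. Between H4C6 and H3C7 lies H4C7, with 4 counts in all 12 libraries. H3C6, upstream of H1-3, was lower in VHL-negative cells under JQ1, as given above. No 75-base window of H4C6 is shared with another annotated gene.

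**Figure D2:**
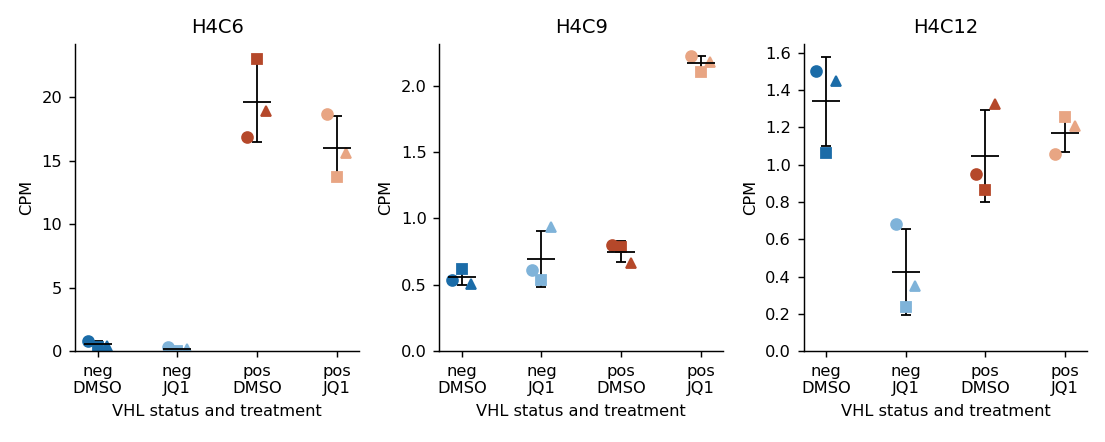
CPM of H4C6, H4C9 and H4C12 in the 4 groups. Circles, squares and triangles are replicates 1, 2 and 3, and the bar is the mean with SD over 3 libraries. H4C6 lies between 13.7 and 23.1 CPM in VHL-positive and at or below 0.848 CPM in VHL-negative libraries.

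The S-phase list of 30 replication genes (among them MCM4, RRM2 and CDC6) was counted in the same comparisons. Under DMSO, 6 were higher and 1 (TYMS) lower in VHL-negative cells, where 14.8% of all genes tested were higher and 15.9% lower. Under JQ1, 21 were higher and none lower, where 19.7% of all genes were higher and 21.2% lower. The summed level of the list ran from 3125 to 3339 CPM in VHL-negative and 2041 to 3285 CPM in VHL-positive DMSO libraries. Under JQ1 it ran from 2956 to 3970 against 1843 to 2306 CPM. Its part in the histone difference was not tested. Of 11 tested replication-independent histone genes, none was higher and 4 were lower in VHL-negative cells under each treatment. Without the 2 DMSO libraries that stood apart, 13 members were higher and 1 lower under DMSO, where 13.1% of all genes were higher and 14.3% lower. Of the 15 calls, 12 were kept. H1-2, H2AC6 and H4C3 lost theirs. Without replicate 1 of VHL-positive DMSO, 7 were higher and 2 lower, and 14.3% of tested members were higher against 11.9% of all genes. Without replicate 1 of VHL-negative DMSO, 8 were higher and 4 lower, or 16.3% higher against 12.0% of all genes. Without replicate 3 of VHL-positive DMSO, 9 were higher, or 18.4% against 10.5%. The share of higher members thus came close to that of all genes when either replicate 1 was left out. With replicate 3 of both JQ1 groups left out, 10 members were higher and 3 lower under JQ1, where 10.1% of all genes were higher and 12.1% lower.

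Fewer members were called for JQ1 than between the lines. In VHL-negative cells no member rose and 5 fell of 48 tested, where 14.6% of all genes rose and 17.5% fell. In VHL-positive cells 3 rose and 8 fell, where 15.3% rose and 16.5% fell. Of the 48 tested members 10.4% and 22.9% were called, against 32.1% and 31.8% of all genes tested. In VHL-positive cells this order turned with total counts alone, at 33.3% against 29.3%, and without replicate 1 of VHL-positive DMSO, at 30.6% against 27.4%. It also turned there without a filter on low counts, at 23.5% against 19.6%. The median log2 change of the tested members was -0.13 and -0.20, against 0.03 and -0.03 over all genes tested.

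**Figure D3:**
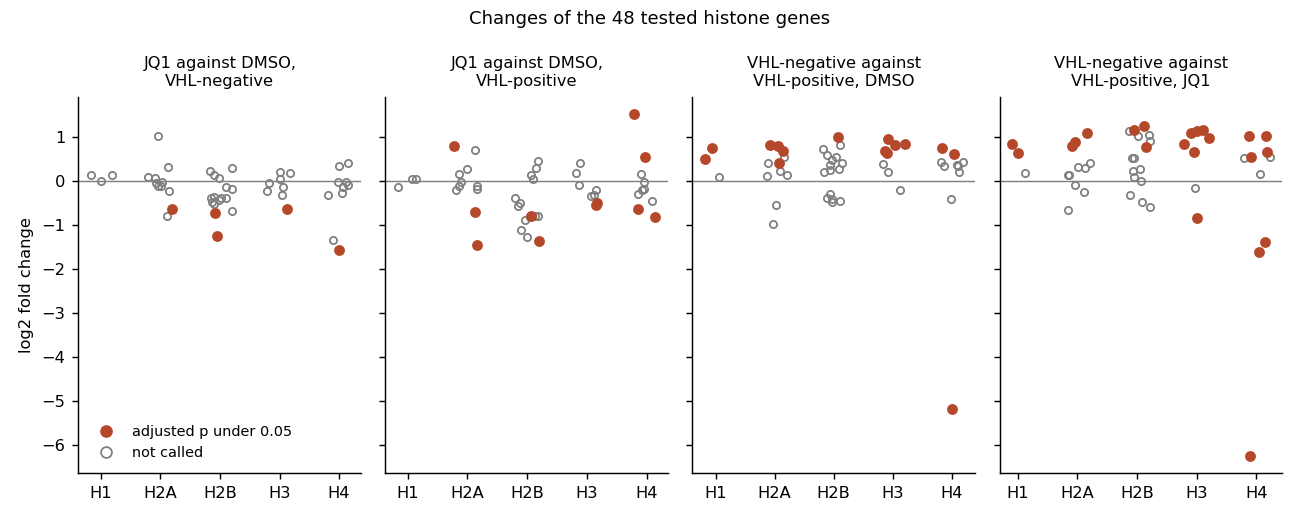
log2 fold changes of the 48 tested members by class in the 4 comparisons of 2 groups. Filled points passed an adjusted p under 0.05 and open points did not. Most points lie above 0 in both comparisons of the lines, and H4C6 lies lowest there, at -5.19 and -6.25.

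H2AC4 and H2BC3 fell with JQ1 in both lines. H2AC4, an H2A gene, in VHL-negative cells went from 79.3, 69.5 and 90.5 CPM to 62.2, 37.6 and 52.9 CPM (log2 -0.65, SE 0.184, adjusted p = 0.0139). With VHL present it went from 67.9, 72.3 and 62.8 CPM to 52.2, 33.9 and 38.3 CPM (log2 -0.70, SE 0.185, adjusted p = 0.00853). In neither line did treated and control libraries overlap. H2BC3 changed by log2 -0.72 (adjusted p = 0.0357) and -0.79 (adjusted p = 0.0226). In VHL-positive cells, its libraries overlapped between treatments, at 19.7, 43.8 and 31.4 CPM against 20.8, 17.4 and 16.8 CPM.

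In VHL-negative cells H4C12, H2BC6 and H3C6 also fell. H4C12 had 1.503, 1.07 and 1.45 CPM under DMSO and 0.683, 0.238 and 0.35 CPM under JQ1, from 36 to 40 and 4 to 20 counts (log2 -1.57, SE 0.356, adjusted p = 0.00325). Every 75-base window of its exon is also found in H4C11. H4C11 shares 79.6% of its own windows and had 2 counts in all 12 libraries, against 321 for H4C12. How the authors' counting treated shared reads is not known, so the value remains uncertain. H3C6 went from 16.2, 11.3 and 12.6 CPM to 10.4, 7.27 and 7.96 CPM (log2 -0.64, SE 0.182, adjusted p = 0.014). H2BC6 stood at 62.5, 25.8 and 19.8 CPM against 20.6, 10.9 and 13.6 CPM, with overlap (log2 -1.25, SE 0.45, adjusted p = 0.0442), and without DMSO replicate 1 the log2 change was -0.59 with an adjusted p of 0.326.

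In VHL-positive cells the 3 members that rose were H4C9, H2AC25 and H4C16. H4C9, at chromosome 6, 27138588 to 27139881, went from 0.804, 0.787 and 0.662 CPM to 2.22, 2.11 and 2.18 CPM, from 20 to 22 and 38 to 61 counts (log2 1.53, SE 0.271, adjusted p = 4.97e-04). H4C9 lay between 0.507 and 0.932 CPM in all 6 VHL-negative libraries. H2AC25, an H2A gene of the small chromosome 1 cluster at 228456979 to 228457873, went from 7.23, 8.65 and 8.10 CPM to 14.2, 12.1 and 15.4 CPM (log2 0.80, SE 0.17, adjusted p = 0.00214). H4C16, the H4 gene that stands alone on chromosome 12 at 14767999 to 14771131, went from 38.8, 42.2 and 36.4 CPM to 69.3, 47.2 and 55.8 CPM (log2 0.55, SE 0.178, adjusted p = 0.0257). All 3 had treated libraries above every control.

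Besides H2AC4 and H2BC3, the members that fell in VHL-positive cells were H2AC16 (log2 -1.47), H2BC10 (-1.37), H4C1 (-0.83), H4C2 (-0.63), H3C12 (-0.55) and H3C2 (-0.50). H2AC16 went from 4.13, 9.64 and 5.90 CPM to 2.69, 2.19 and 2.18 CPM (SE 0.351, adjusted p = 0.00468). H4C1 went from 29.4, 23.7 and 18.7 CPM to 15.9, 11.0 and 13.4 CPM (SE 0.2, adjusted p = 0.00497). For both, every treated library lay below every control. H2BC10 was scarce, with 0.95, 1.97 and 1.26 CPM under DMSO and 0.728, 0.527 and 0.287 CPM under JQ1 (adjusted p = 0.0333). For H3C12 (adjusted p = 0.0477) treated and control libraries overlapped. Its call held in 10 of 20 alternative settings and was lost with DESeq2. The authors' deposited table did not call H3C12 (adjusted p = 0.0606). The calls of H4C2 (adjusted p = 0.0448), H3C2 (0.0284) and H2BC10 held in 12, 13 and 14 of 20 settings.

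Without the 2 DMSO libraries that stood apart, 2 of the 5 calls in VHL-negative cells were kept (H2AC4 and H4C12), and H2BC18 (log2 0.97) and H4C8 (0.72) were called higher. In VHL-positive cells 6 of the 11 calls were kept (H4C9, H2AC25, H4C16, H2AC4, H2AC16 and H4C1), and H2BC26 (log2 1.05) was called higher. With replicate 3 of both JQ1 groups left out, 1 call was kept in VHL-negative cells (H4C12) and 4 in VHL-positive cells (H4C9, H2AC25, H2AC16 and H4C1). Leaving out 1 library, the members that fell in VHL-negative cells numbered 2 without DMSO replicate 1, 1 without JQ1 replicate 2 and 2 without JQ1 replicate 3. Of all genes tested, 13.5%, 13.2% and 12% fell in these fits. In VHL-positive cells the members that fell numbered 13, 3 and 4 without DMSO replicates 1, 2 and 3, where 14.4%, 13.2% and 13.5% of all genes fell. They numbered 2 without JQ1 replicate 2 or JQ1 replicate 3, where 12.1% and 11.2% of all genes fell. With replicate 3 of VHL-negative JQ1 left out, 5 members fell in VHL-positive cells, where 14.5% of all genes fell. The authors' deposited tables gave 50 members an adjusted p in each line. They called 5 members lower and none higher in VHL-negative cells, where 26.9% of all genes with an adjusted p were called. Of these 5, 4 are called here too. In VHL-positive cells they called 3 members higher and 7 lower, where 25.7% of all genes were called, and all 10 are called here. The fifth in VHL-negative cells was H4C6, at log2 -1.41 with an adjusted p of 0.0176 in the authors' deposited table, against -1.35 and 0.0597 here with edgeR.

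No member passed the test of the difference between both JQ1 effects in edgeR, where 1.21% of all genes did, 0.497% higher and 0.710% lower. At an unadjusted p under 0.05 there were 7 (H3C6, H4C12, H4C9, H4C1, H4C16, H2BC8 and H4C8), or 14.6% of tested members against 22.5% of all genes. H3C6 came nearest, with JQ1 changes of log2 -0.64 in VHL-negative and 0.42 in VHL-positive cells (difference -1.05, SE 0.255, adjusted p = 0.0541). H4C12 differed by -1.72 (SE 0.484, adjusted p = 0.0797) and H4C9 by -1.20 (SE 0.409, adjusted p = 0.119). DESeq2 called 2 members for this difference, where it called 7.96% of all genes. Without a filter on low counts, edgeR called 1, where 0.897% of all genes were called. Without replicate 1 of VHL-negative JQ1, 4 members were called lower, 8.16% of those tested, where 16.2% of all genes were called. Without replicate 3 of VHL-positive DMSO, 1 member was called lower, where 0.411% of all genes were.

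The genes that make, cut and chaperone histone RNA and protein were counted from lists. With JQ1, 14.6% of all genes tested rose and 17.5% fell in VHL-negative cells, and 15.3% rose and 16.5% fell in VHL-positive cells. SLBP was 68.0 ± 9.28 CPM under DMSO and 71.5 ± 23.0 CPM under JQ1 in VHL-negative cells, and 50.3 ± 15.0 and 51.6 ± 4.11 CPM in VHL-positive cells, and NPAT likewise passed no test (JQ1 log2 0.17 and 0.16). Of 19 tested genes of histone transcription and 3′ end processing, 1 rose and 3 fell with JQ1 in VHL-negative cells, and 3 rose and 3 fell in VHL-positive cells. LSM11, a subunit of the U7 snRNP, fell in both (log2 -0.66 and -1.23), and so did CPSF2, a subunit of the cleavage complex (-0.91 and -0.54). Of 15 chaperone genes, 3 rose (NASP, TONSL and ASF1B) and 2 fell (SSRP1 and DAXX) in VHL-negative cells, and none rose and 4 fell (SSRP1, NAP1L1, CHAF1A and RBBP4) in VHL-positive cells. The S-phase list had 5 genes rise and 3 fall in VHL-negative cells, and 1 rise and 10 fall in VHL-positive cells, with MCM5 at log2 -1.06 and -1.59.

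Most replication-independent histone genes give mRNAs with poly(A) tails that are also made outside S phase. Of 11 tested with JQ1, 6 rose and none fell in VHL-negative cells, with a median log2 of 0.72, and 5 rose and none fell in VHL-positive cells, with a median of 0.39. Of all genes tested, 14.6% and 15.3% rose. MACROH2A1 (log2 -0.33 and -0.32) and CENPA (-0.26 and -0.43) had values below 0 in both lines without passing the test. H1-10, a linker histone variant, rose by log2 1.21 and 1.35, H2AJ by 1.14 and 1.57, H2AX, the damage-marking H2A variant, by 0.72 and 0.84, and H3-3B, which encodes H3.3, by 0.76 and 0.71. None of the 6 replication-dependent genes listed as also giving polyadenylated RNA (H1-2, H2AC6, H2BC4, H2BC5, H2BC12 and H2BC21) was called for JQ1 in either line. Of all genes tested, 32.1% and 31.8% were called. In VHL-positive cells, though, mean H2BC12 went from 49.8 ± 34.2 to 20.7 ± 3.99 CPM and H2BC21 from 60.7 ± 43.7 to 35.0 ± 13.9 CPM. The mean of H1-2 was also lower with JQ1 there, and those of H2AC6, H2BC4 and H2BC5 were higher.

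H2B genes varied between replicates under DMSO far more than other classes. The spread is given as the range of log2 CPM over the 3 libraries of a group. Its median was 1.45 in VHL-negative and 1.53 in VHL-positive DMSO libraries for the 16 tested H2B genes, 0.41 and 0.79 for the 11 H2A, 0.42 and 0.48 for the 8 H3 and 0.67 and 0.39 for the 10 H4 genes, against 0.41 and 0.48 over all genes tested. In both DMSO groups 9 of the 16 H2B genes (56.2%) ranged over more than 1 log2 unit, against 4.42% of all genes tested. These were H2BC6, H2BC7, H2BC9, H2BC12, H2BC13, H2BC15, H2BC17, H2BC18 and H2BC21. So did 2 of the 11 H2A genes (18.2%), H2AC7 and H2AC16, and no H1, H3 or H4 gene. Under JQ1 the H2B medians were 0.80 and 0.32, against 0.52 and 0.31 over all genes. This pattern was noticed in the values and carries no test.

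H2BC21, which encodes H2B from chromosome 1, 149884459 to 149886652, swung most. It stood at 104, 24.9 and 8.25 CPM in VHL-negative and at 19.7, 107 and 55.7 CPM in VHL-positive DMSO libraries, and at 44.8, 26.9 and 33.2 CPM and 23.6, 50.5 and 30.8 CPM under JQ1. H2BC12 followed the same order, with 134, 48.4 and 25.1 CPM and 16.7, 85.0 and 47.8 CPM under DMSO, and so did H2BC13, with 105, 38.3 and 20.96 CPM and 12.3, 61.9 and 37.3 CPM. Replicate 1 of VHL-negative and replicate 2 of VHL-positive cells were highest for all 3 genes. H2BC8 had its highest value in the same libraries, at 136, 118 and 124 CPM and at 75.4, 137 and 115 CPM, but over a smaller range. Ranked by the smaller of the rises from replicate 3 to 1 in VHL-negative and from replicate 1 to 2 in VHL-positive cells, H2BC21, H2BC12 and H2BC13 were at ranks 1, 2 and 3 of 9886 genes whose mean log2 CPM was 3 or more. The ranking uses the libraries that had been seen to differ and is a description only. In the same DMSO libraries MT-RNR2 and RN7SL1 moved as given above, and NEAT1, a nuclear RNA, held 0.067% and 0.0733% of counts where the other 4 DMSO libraries held 0.165 to 0.317%. Their part in the H2B levels was not tested.

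**Figure D4:**
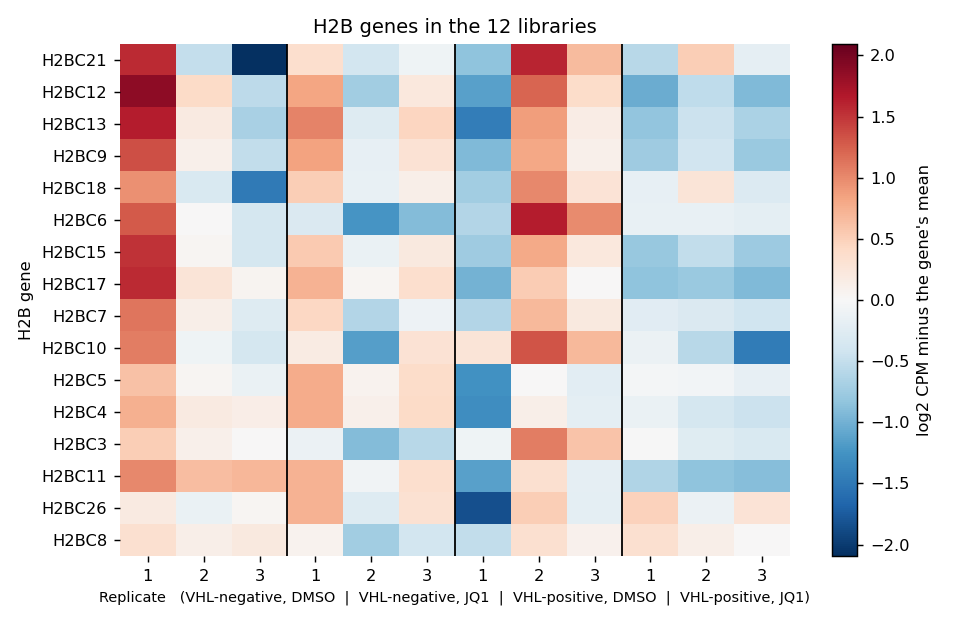
Level of the 16 tested H2B genes in each library, as log2 CPM minus the gene's mean over the 12 libraries, with genes ordered by the ranking described in the text. Vertical lines part the 4 groups of replicates 1 to 3. Replicate 1 of VHL-negative DMSO and replicate 2 of VHL-positive DMSO are the darkest red columns for most genes.

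H2A and H2B genes often share a promoter region and are transcribed apart from each other. Among the members, 9 such head-to-head pairs had starts under 500 bases apart, from 219 bases (H2AC6 and H2BC4) to 331 bases (H2AC12 and H2BC12), and both genes were tested in 8. In 5 of these 8, the H2B gene ranged more widely than its H2A partner in both DMSO groups. H2AC12 ranged over 0.20 and 0.52 log2 units where H2BC12 ranged over 2.41 and 2.35, and H2AC20 over 0.54 and 1.15 where H2BC21 ranged over 3.64 and 2.43. The other 3 were H2AC13 with H2BC13, H2AC6 with H2BC4 and H2AC25 with H2BC26. In VHL-negative DMSO libraries the gap was small for H2AC6 (0.36) with H2BC4 (0.59) and for H2AC25 (0.25) with H2BC26 (0.32). H2AC7, the partner of H2BC7, ranged over 1.71 and 1.45, from 82 counts in all 12 libraries.

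**Figure D5:**
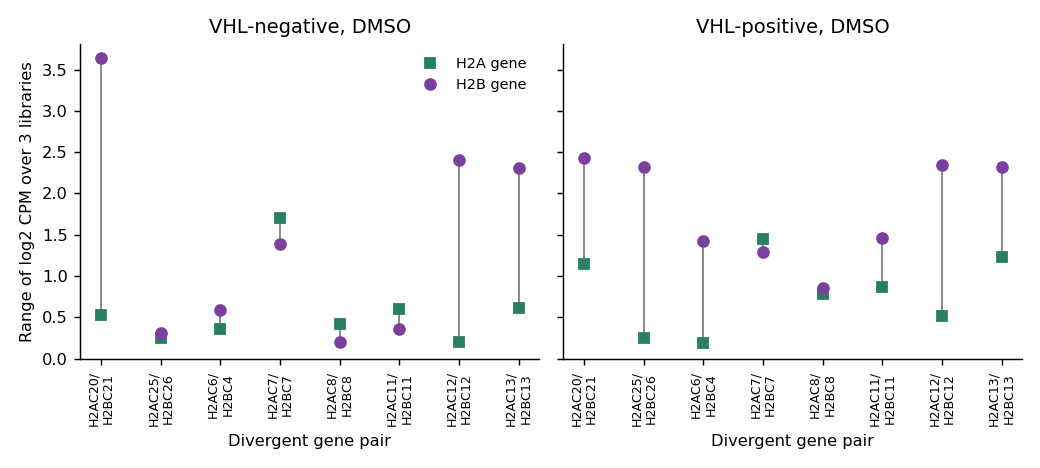
Range of log2 CPM over the 3 DMSO libraries of each line for the 8 divergent pairs with both genes tested, H2A genes as squares and H2B genes as circles, joined within a pair. The circle lies above the square in both panels for 5 pairs, with the widest gap for H2AC20 and H2BC21 in VHL-negative cells.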

How the data were processed

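Total RNA of RCC4 cells, treated with DNase and depleted of ribosomal RNA per the labels' protocols, was sequenced in 12 libraries, 3 per group. The authors deposited raw counts per Ensembl gene. The build was GRCh38, with STAR 2.7.8, featureCounts of Subread 2.0.3 and DESeq2 1.30.1 listed as tools per the submitters' processing notes. Whether counting used strand is not stated there, so reads of overlapping genes on opposite strands may not be separated. For JQ1 in each line, the authors deposited log2 fold changes with standard errors, a test statistic that is a score, p-values and adjusted p-values, and a mean over libraries of another (other) unit, normalized counts.

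From these counts, edgeR 4.0.16 with limma 3.58.1 under R 4.3.3 gave the tests: TMM scaling, edgeR's default filter on expression, passed by 20714 genes including 48 of the 51 members (H1-1, H2AC17 and H2BC14 were not tested), 1 mean per group over all 12 libraries, quasi-likelihood tests and Benjamini-Hochberg adjustment over all genes tested. The functions were tested on simulated data. Positions come from GENCODE 29 (GRCh38), promoters from RefSeq. Alternatives were median-of-ratios scaling, total counts alone, no filter, DESeq2 1.42.0, a replicate block, fits of only the compared groups, a threshold of 0.01, 50-base windows, leaving out each library and leaving out the third JQ1 libraries. Leaving out 2 DMSO libraries was added after seeing the data. The members, the lists and this choice of tests were made with earlier results of these data known. Named were members called for JQ1, those with the largest differences between the lines, the most abundant per class, the listed poly(A) and testis genes, and up to 4 genes with the smallest p per other list. Values are relative to each library's counts, so RNA per cell is not measured.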

Additional observations from a re-analysis of the deposited data

How the results depend on the processing

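With total counts alone, JQ1 called 1 member higher in VHL-negative cells, where 11.9% of all genes were higher. In VHL-positive cells it called 14 members lower with this scaling, where 19.3% of all genes were lower. This scaling moved the median log2 of all genes tested to -0.14 for JQ1 in VHL-positive cells and to 0.19 for the lines under JQ1. At a threshold of 0.01, 1 member fell in VHL-negative and 3 in VHL-positive cells, and 7 were higher in VHL-negative cells under DMSO. The shares of all genes at this threshold are not given here. Without the 2 DMSO libraries, JQ1 called 2 members higher and 2 lower in VHL-negative cells and 3 lower in VHL-positive cells. Of all genes, 12.2% were higher and 15.2% lower in VHL-negative cells, and 14% lower in VHL-positive cells. Without the third JQ1 libraries, 1 and 2 members fell, where 10.3% and 9.84% of all genes fell. In VHL-negative cells under JQ1, 10 members were then higher, where 10.1% of all genes were. For the difference between the JQ1 effects, 1 member was lower without the filter, 2 with DESeq2 and 1 with the replicate block. Of all genes, 0.544%, 5.32% and 0.772% were lower in these fits. The block changed the other counts by 1.5 times or less. Replicates that share a number did not vary together (correlations from -0.26 to 0.33), so the block is not taken as a pairing.

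Leaving out each library in turn, members that rose numbered 0 to 1 and those that fell 1 to 7 in VHL-negative cells, and 2 to 4 and 2 to 13 in VHL-positive cells. Of all genes, 9.4 to 16.9% rose and 12 to 20.4% fell in VHL-negative cells over these fits. In VHL-positive cells 10.7 to 16.8% of all genes rose and 11 to 17.1% fell. Between the lines, 7 to 17 members were higher and 1 to 4 lower under DMSO, and 14 to 23 higher and 4 to 5 lower under JQ1. Of all genes, 10.5 to 16% were higher and 12.6 to 16.8% lower under DMSO. Under JQ1 these shares were 13.4 to 20.9% and 15.4 to 23.5%. For the difference, 0 members were higher and 0 to 4 lower, where 0.0787 to 5.99% of all genes were higher and 0.12 to 10.2% lower. No call changed direction in the settings where it was recomputed, and members that were not called were not followed. H4C9, H2AC25, H2AC16 and H4C1 kept their call for JQ1 in VHL-positive cells, and H4C12 in VHL-negative cells, under all 20 settings. Between the lines under DMSO, so did H4C6, which was lower in VHL-negative cells. H1-4, H2BC11, H3C2, H3C7, H3C10, H3C12 and H4C16, which were higher there, also kept their call under all 20. The cause of lost calls was not tested, though fits with fewer libraries also have less power. Low counts limit H4C12 (4 to 44 per library) and H4C9 (9 to 61).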
